A study of Mus musculus with 6 samples.

Results

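Mitochondrial ribosomal proteins were followed in Pmel-1 CD8+ T cells, whose transgenic receptor recognises the melanoma antigen gp100. The members were the genes whose array annotation gave a single symbol beginning with Mrpl (large subunit) or Mrps (small subunit) and a number, which was 77 of 19938 named genes, 48 of the large and 29 of the small subunit. Where a gene had several probe sets the brightest on average stood for it, and no pseudogene symbol had to be dropped. The study set IL-12 priming beside IL-2 priming to find genes needed for activity against tumours. All cells came from spleens of female C57BL/6 mice carrying the Pmel-1 receptor, and no age was given in the labels. Naive cells (2 arrays) were sorted fresh as CD8+ Thy1.1+ cells. IL-2 cells (2 arrays) and IL-12 cells (2 arrays) saw gp100 for 4 days and the named cytokine for 6 days, and the labels name no sort after culture. The times are those of the treatment text, whereas the design text gives 6 days for antigen and cytokine alike.

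Mitochondria keep a small genome that encodes core subunits of the respiratory chain and ATP synthase, and they translate these messages on ribosomes of their own. The RNAs of that ribosome come from mitochondrial DNA, whereas all of its proteins are encoded in the nucleus, made in the cytosol and imported. The small subunit binds and decodes the message, and the large subunit joins amino acids and releases the chain at the inner membrane. Activated T cells are known to build mitochondria as they grow and divide.

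Values are deposited log2 values made with RMA, and differences are log2 fold changes with the standard error (SE) of a limma fit across all genes. A gene was called at a Benjamini-Hochberg adjusted p of 0.05 over 11147 tested genes. All 77 members lay above the filter on low values (6.83) on all 6 arrays, with values from 7.03 to 11.90. Whether the 2 arrays of each group are of different animals or cultures is not stated in the labels, so p-values may measure technical spread only, and the number of arrays limits the precision. These are bulk measurements, in which fewer cells of a type and less RNA per cell cannot be told apart.

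The cells were checked against defining markers. Cd8a read between 12.12 and 12.66 and Cd3e between 12.76 and 13.31. The summed linear level of the 8 measured CD8 T cell markers was 48010 and 52410 in naive, 49130 and 50030 in IL-2 and 39070 and 38170 in IL-12 cells, and 6 of them were called lower in IL-12 than in naive cells. The sum of the 3 markers of CD4 and regulatory T cells was 394 and 392 in naive, 742 and 791 in IL-2 and 685 and 636 in IL-12 cells. Of these Zbtb7b was called higher in both primed groups, Foxp3 was not called, and Cd4 lay below the filter on all arrays. The 6 measured B cell markers had a summed linear level of 4217 and 4512 on the naive arrays, 981 and 961 on the IL-2 arrays and 2168 and 2150 on the IL-12 arrays. The sum of the 6 measured myeloid and dendritic markers was 1928 and 2063 in naive cells and between 432 and 659.6 in the primed cells. Of 5 tested, 4 were called lower in IL-2 cells than in naive cells (19.9% of all tested genes were). In IL-12 cells 3 were called lower (26.7% were) and Itgam higher. Itgam read 6.19 and 6.44 in naive and 6.55 and 6.59 in IL-2 cells, below the filter, and 7.41 and 7.63 in IL-12 cells. The part of all these markers in the differences below was not tested.

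The 2 naive arrays differed in this family. Naive replicate 2 read higher than replicate 1 for 69 of 77 members, by a median of 0.22 on the log2 scale, against a median of 0.07 over all tested genes. The shift was 0.31 in the large subunit and 0.13 in the small subunit. Between replicates of IL-2 cells it was 0.01, and of IL-12 cells 0.08. The median of the members was 8.80 and 8.96 on the naive arrays, 9.36 and 9.40 on the IL-2 arrays and 9.44 and 9.56 on the IL-12 arrays. All 4 primed arrays thus lay above both naive arrays, and the gap from the higher naive array to the lowest primed array was larger than the gap between the naive arrays. In the small subunit alone, with medians of 8.49 and 8.69 in naive and 8.82 and 8.89 in IL-2 cells, it was the smaller of the 2 gaps.

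**Figure D1:**
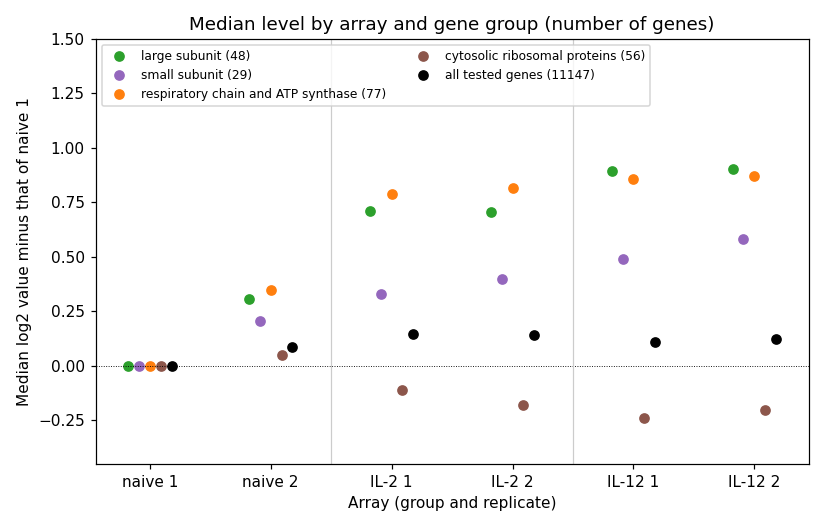
Median log2 value over the genes of each group on each of the 6 arrays, as the difference from naive replicate 1; 1 point is 1 array and the number of genes stands in brackets. The large and small subunits and the respiratory chain lie higher on all 4 primed arrays than on both naive arrays, cytosolic ribosomal proteins lie lower, and the naive arrays themselves stand apart in the first 3 groups.

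**Figure D2:**
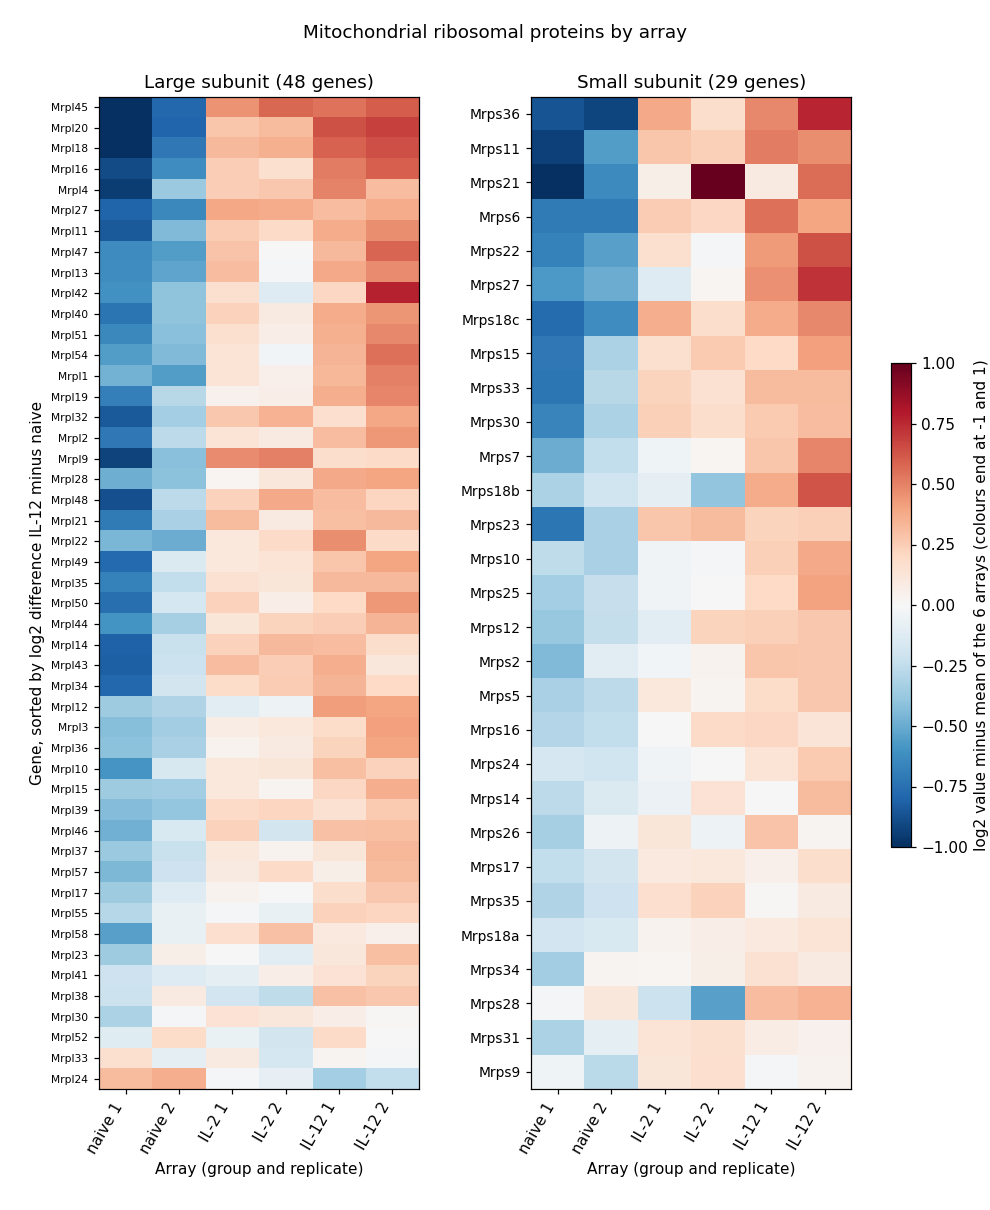
Log2 value of each of the 77 members on each of the 6 arrays, minus the mean of that gene over the arrays, with the large subunit on the left (48 genes) and the small subunit on the right (29 genes). Most rows run from blue in naive cells to red in IL-12 cells, and Mrpl24 at the foot of the large subunit runs the other way.

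Mitochondrial ribosomal protein genes of both subunits rose in IL-2 cells relative to naive cells. Of 77 members, 54 passed the limma test as higher, where 25.8% of all tested genes did, and 2 as lower, where 19.9% did (45.7% in either direction). The median log2 fold change was 0.54, against 0.01 over all tested genes. Called rises of at least 2-fold numbered 8 among the 77 members and 793 among all 11147 tested genes. Both IL-2 arrays lay above both naive arrays for 67 members, a pattern that 38.7% of tested genes showed. The count of higher members was 36 without IL-2 replicate 1, 35 without IL-2 replicate 2, 44 without naive replicate 1 and 60 without naive replicate 2. Another scaling moved the split of all calls: 56.4% of all called genes were higher as deposited, 67.5% after median centring of the arrays and 44.8% after centring on the median of the tested genes. The members then had 60 higher (29.4% of tested genes were) and none lower by limma, and 47 higher (21.9% were) and 2 lower. The median was 0.40 without naive replicate 1 and 0.61 without naive replicate 2.

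The largest rise was that of Mrpl45, a large subunit protein at the polypeptide exit that faces the inner membrane. It read 7.40 and 8.01 in naive cells and 9.24 and 9.37 in IL-2 cells, a 3.03-fold difference (log2 difference 1.60 ± 0.18, 2 arrays on each side; limma adjusted p = 0.000146). Its naive arrays differed more than its IL-2 arrays, and both lay below them. Mrpl18, a protein of the central protuberance, read 8.91 and 9.39 in naive cells and 10.44 and 10.46 in IL-2 cells (1.30 ± 0.15; limma adjusted p = 0.000192). Mrpl20, counterpart of a bacterial protein needed early in large subunit assembly, read 7.97 and 8.29 against 9.36 and 9.40 (1.25 ± 0.13; limma adjusted p = 7.35e-05). Mrpl9 read 8.34 and 8.85 against 9.73 and 9.76, a 2.23-fold rise (limma adjusted p = 0.000443). In these 3 genes, too, the naive replicates differed more than the IL-2 replicates.

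The promoters of some members that the comparisons turn on are shown to set their letters beside these changes. Mrpl45 and Mrpl18 had large rises, Mrps11 a large rise in the small subunit, Mrpl12 a difference between the cytokines, and Mrpl24 was the member that fell in both comparisons with naive cells. Each sequence is the stretch of 250 bases before the annotated start, 5′ to 3′ on the gene's strand, from RefSeq on GRCm38.p6. Capitals mark matches to 5 short motifs defined after the sequences.
Mrpl45, chr11:97315466-97315715, plus strand: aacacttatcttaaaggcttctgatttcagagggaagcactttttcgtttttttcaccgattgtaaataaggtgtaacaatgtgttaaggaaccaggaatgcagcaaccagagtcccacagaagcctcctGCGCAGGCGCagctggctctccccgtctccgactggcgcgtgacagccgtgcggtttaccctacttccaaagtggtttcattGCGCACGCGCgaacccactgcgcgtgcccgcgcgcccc
Mrpl18, chr17:12916092-12916341, minus strand: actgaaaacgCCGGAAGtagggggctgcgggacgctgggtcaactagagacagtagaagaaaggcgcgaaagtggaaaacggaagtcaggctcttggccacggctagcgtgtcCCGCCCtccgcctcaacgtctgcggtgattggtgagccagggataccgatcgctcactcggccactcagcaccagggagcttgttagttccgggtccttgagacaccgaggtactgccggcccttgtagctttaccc
Mrps11, chr7:78782881-78783130, plus strand: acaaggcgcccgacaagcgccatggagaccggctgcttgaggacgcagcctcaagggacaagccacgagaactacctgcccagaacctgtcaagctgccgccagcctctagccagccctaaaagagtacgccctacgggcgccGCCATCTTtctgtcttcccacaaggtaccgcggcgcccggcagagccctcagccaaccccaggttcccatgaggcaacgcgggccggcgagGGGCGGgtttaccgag
Mrpl12, chr11:120484387-120484636, plus strand: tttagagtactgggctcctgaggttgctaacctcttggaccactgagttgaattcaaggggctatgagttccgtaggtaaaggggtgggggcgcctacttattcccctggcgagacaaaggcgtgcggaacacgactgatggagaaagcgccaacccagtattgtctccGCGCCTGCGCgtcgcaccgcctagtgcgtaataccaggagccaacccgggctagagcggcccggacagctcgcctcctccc
Mrpl24, chr3:87919294-87919543, plus strand: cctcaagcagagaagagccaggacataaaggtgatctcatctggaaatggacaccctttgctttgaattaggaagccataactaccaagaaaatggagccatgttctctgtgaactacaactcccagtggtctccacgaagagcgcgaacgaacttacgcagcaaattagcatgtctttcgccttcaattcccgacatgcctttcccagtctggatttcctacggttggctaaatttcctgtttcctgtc

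The motifs were searched on both strands from 250 bases before to 50 bases after the start, and 68 members had such a window. The NRF1 motif, seen as the capitals in Mrpl45 and named for a transcription factor of nuclear genes for mitochondria, was in 13 members (19.1%) and in 11.8% of tested genes with a window. The ETS motif CCGGAAG, of the family that holds GABPA, was in 25 members (36.8%) against 20.7%. The YY1 motif AAGATGGC was in 12 members (17.6%) against 5.55%. Its match began after the start, at bases 12 to 37, in Mrpl35, Mrpl37, Mrpl42, Mrpl49, Mrps7, Mrps18a, Mrps24 and Mrps27. Only in Mrpl32, Mrpl36, Mrps11 and Mrps12 did it lie before the start. The E-box CACGTG, which MYC and related factors bind, was in 5 members (7.35%) against 11.9%, and the SP motif GGGCGG in 34 (50%) against 68.3%. Over all windows of that length in the table the shares were 4.6%, 8.86%, 2.75%, 7.15% and 35.7% in the same order. Matches of 2 motifs overlapped in 2 members, each ETS with SP. Of the sequences shown, Mrpl45 and Mrpl12 hold NRF1 matches, Mrpl18 an ETS and an SP match, Mrps11 a YY1 and an SP match, and Mrpl24 none in its window. The sequences shown are not typical in this. Of the 68 members, 13 held none of the 5 motifs. Besides Mrpl24 these included Mrpl16 and Mrpl11, which rose by 1.31 and 1.06 in IL-12 against naive cells. A match is a description of letters and was not tied to binding here.

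Among small subunit genes, Mrps21 and Mrps36 rose most in IL-2 cells. Mrps21, counterpart of a small bacterial ribosomal protein, read 9.74 and 10.21 in naive cells and 10.91 and 11.90 in IL-2 cells (1.43 ± 0.30; limma adjusted p = 0.00496). Its IL-2 replicates lay 0.99 apart, the widest gap between IL-2 replicates among the members. Mrps36, which carries a ribosomal symbol but is also described as a subunit of the 2-oxoglutarate dehydrogenase complex, read 7.21 and 7.16 against 8.45 and 8.25 (1.17 ± 0.13; limma adjusted p = 0.00013). Mrps18c, a platform protein, was 1.95-fold higher, whereas its relatives Mrps18a and Mrps18b had log2 fold changes of 0.22 ± 0.10 and 0.02 ± 0.14 and did not pass the limma test (adjusted p = 0.0929 and 0.927). The groups of Mrps18b overlapped, at 10.18 and 10.30 in naive and 10.41 and 10.10 in IL-2 cells.

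The 2 members that fell in IL-2 cells were Mrpl24 and Mrps28. Mrpl24, counterpart of a bacterial protein that starts large subunit assembly, read 9.94 and 9.99 in naive and 9.61 and 9.55 in IL-2 cells (it fell by 0.39 on the log2 scale; limma adjusted p = 0.0124). Mrps28 read 8.57 and 8.69 against 8.36 and 8.03 (it fell by 0.43; limma adjusted p = 0.0239). Neither fall was called with each array centred on its median or without IL-2 replicate 2. The call of Mrpl24 was also lost without IL-2 replicate 1 and that of Mrps28 without naive replicate 2. Mrpl38 and Mrpl52 had log2 fold changes of -0.16 ± 0.12 and -0.16 ± 0.13 and did not pass.

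Against the same naive cells, IL-12 cells had more members called higher, and the median difference was larger; the direct comparison of the primed cells is given further on. The naive arrays are the same as in the comparison of IL-2 cells, so the comparisons are not independent. Of 77 members, 66 passed the limma test as higher (31.2% of tested genes did) and 1 as lower (26.7% did, and 57.9% in either direction). The median log2 fold change was 0.76, against 0.04 over all tested genes. Called rises of at least 2-fold numbered 15 among the 77 members and 1168 among all 11147 tested genes. Both IL-12 arrays lay above both naive arrays for 74 members, a pattern shown by 42.5% of tested genes. The count of higher members ran from 56 to 71 when any 1 array was left out. Centring each array on its median moved the median of all tested genes to 0.16 and that of the members to 0.87.

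Mrpl45 again showed the largest rise, to 9.34 and 9.40 (1.66 ± 0.18; limma adjusted p = 6.96e-05), a 3.16-fold difference. Mrpl20 read 9.72 and 9.77 in IL-12 cells, a 3.06-fold rise (1.61 ± 0.13; limma adjusted p = 9.77e-06). Mrpl18 read 10.70 and 10.75, a 2.98-fold rise. Mrps36 read 8.55 and 8.83, a 2.85-fold rise (1.51 ± 0.13; limma adjusted p = 1.68e-05). Mrpl16, a protein near the catalytic centre of the large subunit, was at 8.31 and 8.59 in naive and 9.72 and 9.81 in IL-12 cells, a 2.49-fold rise. Mrps11, which lies on the platform of the small subunit, was at 7.51 and 7.89 against 8.96 and 8.91, a 2.36-fold rise. In all 6 genes the IL-12 arrays lay above both naive arrays. Mrps21 was at 10.94 and 11.41, a 2.3-fold rise (limma adjusted p = 0.00838), and this call was lost without naive replicate 1 or IL-12 replicate 2 (adjusted p up to 0.0649). Mrps18c read 8.76 and 8.91 in naive and 9.90 and 10.01 in IL-12 cells, a 2.18-fold rise, and Mrps18a rose by 0.29.

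Mrpl24 was the only member lower in IL-12 than in naive cells, at 9.29 and 9.38 (it fell by 0.63 on the log2 scale; limma adjusted p = 0.000708). That call was kept under all 15 alternative settings. At the other low end, Mrpl33 (-0.03 ± 0.13), Mrpl52 (0.06 ± 0.13) and Mrps9 (0.17 ± 0.11) did not pass the limma test (adjusted p = 0.862, 0.713 and 0.233). Mrpl33 read 8.30 and 8.05 in naive, 8.24 and 7.97 in IL-2 and 8.17 and 8.13 in IL-12 cells, so that all 3 groups overlapped.

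**Figure D3:**
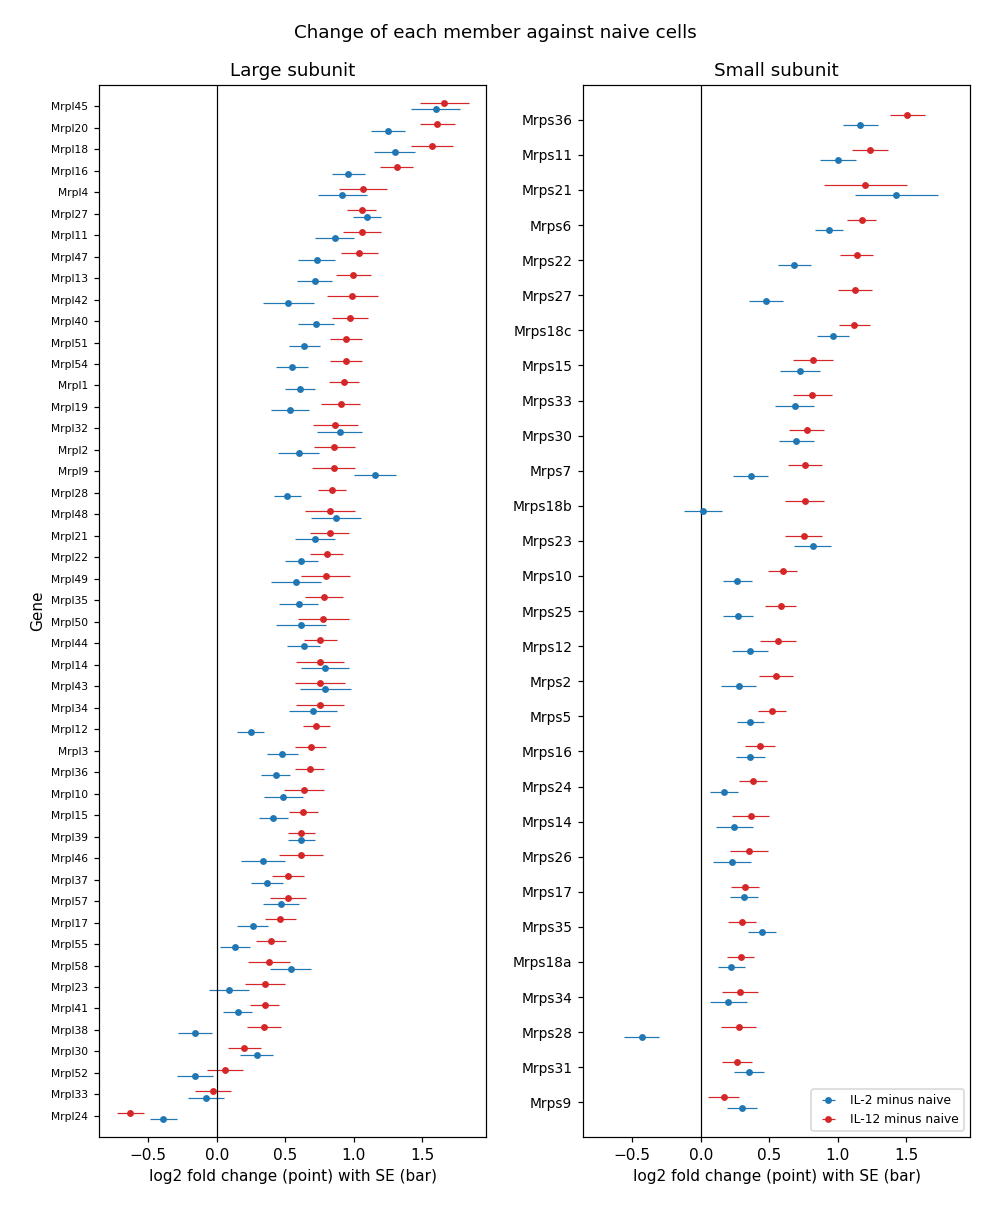
Log2 fold change of each member against naive cells (points) with the SE of the limma fit (bars), for IL-2 cells in blue and IL-12 cells in red, large subunit on the left and small subunit on the right. Most points lie to the right of 0, from Mrpl45 at 1.66 in IL-12 cells down to Mrpl24 at -0.63.

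Members with set roles gave a similar range. Mrpl11 and Mrpl12 form the stalk region where translation factors dock. Mrpl11 read 8.88 and 9.28 in naive, 9.97 and 9.91 in IL-2 and 10.09 and 10.19 in IL-12 cells, a rise of 1.82-fold and 2.08-fold against naive (limma adjusted p = 0.00121 and 0.000231). Mrpl2 and Mrpl3, which lie near the catalytic centre, were 1.51-fold and 1.40-fold higher in IL-2 cells and 1.81-fold and 1.61-fold higher in IL-12 cells. The rise of Mrpl2 in IL-2 cells was lost without either IL-2 array (limma adjusted p up to 0.0675), and that of Mrpl3 without IL-2 replicate 2. Mrps12, which acts in decoding accuracy, read 7.03 and 7.17 in naive, 7.29 and 7.63 in IL-2 and 7.65 and 7.68 in IL-12 cells. It was 1.48-fold higher in IL-12 cells (limma adjusted p = 0.00536) and just missed the threshold in IL-2 cells (adjusted p = 0.0504). Mrps5, near the message entry, was 1.29-fold and 1.43-fold higher in IL-2 and IL-12 cells, and the call in IL-2 cells was lost under 4 of 15 alternative settings. Mrps7, of the small subunit head, was 1.29-fold and 1.69-fold higher, and its call in IL-2 cells was lost under 9 of 15 alternative settings. Mrps30 was 1.62-fold and 1.71-fold higher. Mrpl58, a hydrolase that frees stalled chains, was 1.45-fold higher in IL-2 cells (limma adjusted p = 0.0185, lost without naive replicate 1 or without either IL-2 array). In IL-12 cells it had a log2 fold change of 0.38 ± 0.15 (adjusted p = 0.0581).

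The large subunit had higher medians than the small subunit against naive cells. In IL-2 cells the median log2 fold change was 0.60 over 48 large subunit genes and 0.36 over 29 small subunit genes, with 37 of 48 (77.1%) and 17 of 29 (58.6%) called higher. In IL-12 cells the medians were 0.78 and 0.58, with 42 of 48 (87.5%) and 24 of 29 (82.8%) called higher. Over all tested genes 25.8% were called higher in IL-2 cells and 31.2% in IL-12 cells. The ranges overlapped almost whole, from -0.63 to 1.66 in the large and from 0.17 to 1.51 in the small subunit in IL-12 cells. The difference of medians in IL-2 cells was 0.24, and it was 0.10 without naive replicate 1 and 0.30 without naive replicate 2. In IL-12 cells it was 0.20, and it was 0.09 without naive replicate 1, 0.36 without naive replicate 2, 0.12 without IL-12 replicate 1 and 0.03 where only genes above the 75th percentile were kept. Counting Mrps30 and Mrps18a with the large subunit, where structures place them, left these differences at 0.24 and 0.19. Members are not replicates, so the subunits were described and not tested against each other.

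Genes with a bacterial counterpart, by number, were set beside those without. Among all tested genes, 25.8% rose and 19.9% fell in IL-2 cells, and 31.2% rose and 26.7% fell in IL-12 cells. Of 45 with a counterpart, 31 rose and 1 fell in IL-2 cells and 40 rose and 1 fell in IL-12 cells, with medians of 0.52 and 0.76. Of 32 without, 23 rose and 1 fell in IL-2 cells and 26 rose in IL-12 cells, none falling in limma's test, with medians of 0.54 and 0.75. Mrps28, counted by its number among the latter, has also been named a counterpart of a bacterial protein.

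Other protein families give the setting for these values. Of all tested genes, 25.8% rose and 19.9% fell in IL-2 cells, and 31.2% rose and 26.7% fell in IL-12 cells. Of 77 tested nuclear genes of the respiratory chain and ATP synthase, 54 rose (70.1%) and none fell in IL-2 cells by limma. In IL-12 cells 64 rose (83.1%) and 1 fell, and the medians were 0.50 and 0.61. These genes also read higher on naive replicate 2 than on replicate 1, by a median of 0.27. Of 56 tested cytosolic ribosomal protein genes, 1 rose (1.79%) and 16 fell (28.6%) in IL-2 cells. In IL-12 cells 3 rose (5.36%) and 23 fell (41.1%), and the medians were -0.16 and -0.20. Cytosolic ribosomal genes have many near-identical copies, so their probe sets may mix signals. The cytosolic list was drawn by symbol (Rpl or Rps and a number). It therefore also took in symbols such as Rps19bp1, Rps23rg1 and Rpl7l1, which need not be ribosomal subunits. Medians were thus above 0 for the mitochondrial ribosome and the respiratory chain and below 0 for the cytosolic ribosome. These families were not tested against each other.

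**Figure D4:**
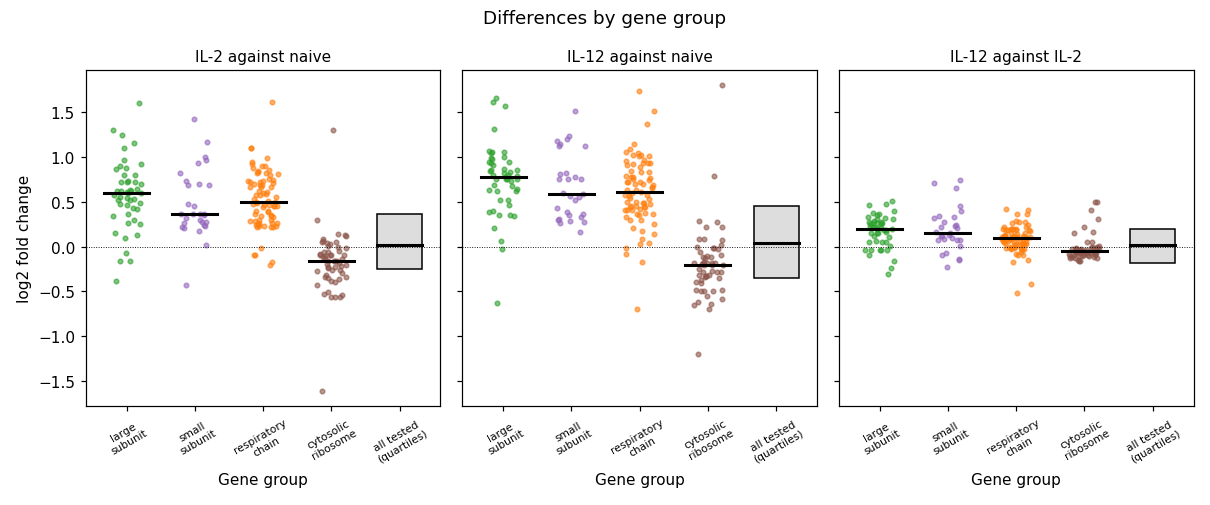
Log2 fold change of each tested gene (points) with the group median (bar) in 3 comparisons, for both subunits, the respiratory chain and ATP synthase, and cytosolic ribosomal proteins; the grey box spans the quartiles of all 11147 tested genes with their median. Both subunits sit above 0 against naive cells, with medians of 0.60 and 0.36 in IL-2 cells and 0.78 and 0.58 in IL-12 cells, and close to 0.2 between the primed groups.

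Between the primed groups, 7 of 77 members were higher with IL-12, which is 9.09% where 9.82% of all tested genes did, so that the share of calls was that of the background. No member was called lower by limma (11% of tested genes were, and 20.8% were called in either direction). At an unadjusted p under 0.05, 22 members were higher and 1 was lower, where 17.2% and 18% of tested genes were. The differences were small and mostly in the same direction: 63 of 77 members (81.8%) had a positive log2 fold change, as did 52.6% of tested genes, with a median of 0.20 against 0.02. Both IL-12 arrays lay above both IL-2 arrays for 51 members (66.2%), a pattern shown by 36.1% of tested genes, and below them for 8, where 33.4% did. The call count rests on single arrays: it fell when any primed array was left out and rose when a naive array was left out. The share of all tested genes called in those fits is not given here, so these changes are no result about the family.

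Mrps18b, a small subunit protein, differed most. It read 10.41 and 10.10 in IL-2 cells and 10.86 and 11.13 in IL-12 cells (0.74 ± 0.14; limma adjusted p = 0.00725), while naive cells read 10.18 and 10.30. The IL-12 arrays alone were high. Mrps28 read 8.36 and 8.03 in IL-2 and 8.89 and 8.93 in IL-12 cells (0.71 ± 0.13; limma adjusted p = 0.00626). Here the IL-2 arrays alone were low, below the naive values of 8.57 and 8.69. The IL-12 arrays of Mrps28 lay above both naive arrays without passing the test (0.28 ± 0.13; limma adjusted p = 0.0969). Mrps27, a pentatricopeptide repeat protein of the small subunit, read 7.29 and 7.37 in naive, 7.73 and 7.88 in IL-2 and 8.32 and 8.59 in IL-12 cells (0.65 ± 0.12 between the cytokines; limma adjusted p = 0.00732). None of its 3 groups overlapped.

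Mrpl38, a protein of the central protuberance, read 8.87 and 8.81 in IL-2 and 9.36 and 9.33 in IL-12 cells (0.50 ± 0.12; limma adjusted p = 0.0215), and 8.85 and 9.15 in naive cells. Mrpl12, the stalk protein that has also been reported to bind the mitochondrial RNA polymerase, read 9.25 and 9.30 in naive, 9.50 and 9.55 in IL-2 and 10.02 and 9.99 in IL-12 cells (0.48 ± 0.10; limma adjusted p = 0.0105). It was 1.66-fold higher in IL-12 than in naive cells, and in IL-2 cells its log2 fold change of 0.25 ± 0.10 did not pass (adjusted p = 0.067). Mrps22 and Mrpl54 were 1.37-fold and 1.31-fold higher in IL-12 than in IL-2 cells, close to the threshold (limma adjusted p = 0.0288 and 0.0481). Each of the 7 calls was lost under at least 1 alternative setting: Mrps28 without IL-2 replicate 2, Mrps27 if IL-2 replicate 1 was left out or else IL-12 replicate 2, Mrps18b if replicate 2 of either cytokine was left out, and Mrpl12, Mrpl38, Mrps22 and Mrpl54 without any 1 of the 4 primed arrays. Mrpl42 was the largest difference that did not pass, at 8.04 and 7.75 in IL-2 and 8.09 and 8.65 in IL-12 cells (0.47 ± 0.19; limma adjusted p = 0.109), and its IL-12 arrays differed more than its IL-2 arrays. Mrpl9 lay at the other end, at 9.73 and 9.76 in IL-2 and 9.44 and 9.45 in IL-12 cells (-0.30 ± 0.16; adjusted p = 0.206). Its IL-12 arrays lay below both IL-2 arrays without passing the test.

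**Figure D5:**
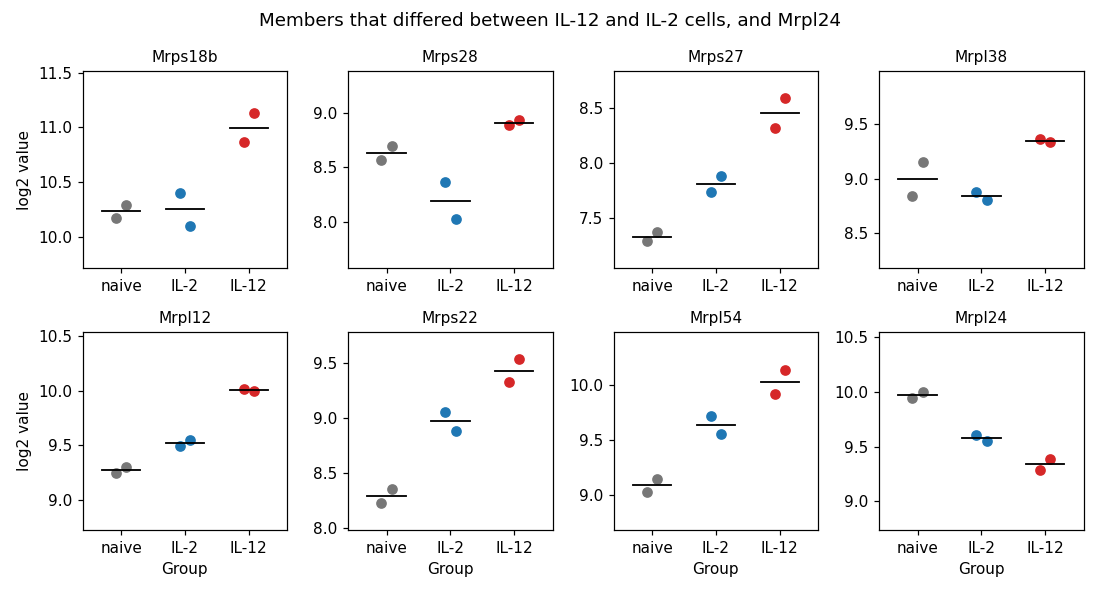
Log2 value on each array (points, 2 per group) with the group mean (bar) for the 7 members called between the cytokines, with Mrpl24 added; every panel spans 1.8 on the log2 scale. Mrps18b is high in IL-12 cells alone, Mrps28 is low in IL-2 cells alone, and Mrpl24 is highest in naive cells.

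The B cell markers moved between the primed groups as well, with a summed level of 981 and 961 in IL-2 and 2168 and 2150 in IL-12 cells, and all 6 were called higher in IL-12 cells. Of 8 CD8 T cell markers 5 were lower in IL-12 cells. Of 5 tested myeloid and dendritic markers 2 were called higher in IL-12 than in IL-2 cells, Itgam (0.95) and Mpeg1 (0.97), and none lower. Mpeg1 lay below the filter on every primed array. Of all tested genes 9.82% were called higher and 11% lower in this comparison. The part of all these markers in the small differences of the members was not tested.

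Genes that work with the mitochondrial ribosome were followed through pathway lists. Of 4 further ribosomal subunits with other symbols, 2 rose in IL-2 cells and 3 in IL-12 cells. These shares, 50% and 75%, rest on few genes, and of all tested genes 25.8% and 31.2% rose. Ptcd3, a pentatricopeptide repeat protein of the small subunit, read 8.63 and 8.52 in naive, 8.96 and 8.77 in IL-2 and 9.21 and 9.39 in IL-12 cells, and it rose between the cytokines too (0.43; limma adjusted p = 0.0338). Chchd1 and Dap3 rose by 0.76 and 0.44 in IL-12 against naive cells, and Gadd45gip1 had 0.23 (adjusted p = 0.123).

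Of 10 tested mitochondrial translation factors, 4 rose in IL-2 cells and 4 in IL-12 cells (40% in each, where 25.8% and 31.2% of all tested genes rose). These were the elongation factor genes Gfm1, Tufm and Tsfm and the factor Guf1 in each case. Gfm1 rose by 0.48 ± 0.12 in IL-2 and 0.84 ± 0.12 in IL-12 cells, Tufm by 0.53 and 0.76, Tsfm by 0.53 and 0.99 and Guf1 by 0.59 and 0.43. The initiation factor genes Mtif2 and Mtif3 did not pass the test against naive cells, with differences of -0.12 and 0.05 in IL-12 cells.

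Of 21 genes of ribosome assembly and rRNA modification, 5 rose and 2 fell in IL-2 cells and 7 rose and 3 fell in IL-12 cells. The shares that rose, 23.8% and 33.3%, were near those of all tested genes (25.8% and 31.2%), and the shares that fell, 9.52% and 14.3%, were below them (19.9% and 26.7%). The GTPase gene Gtpbp10 rose by 0.68 in IL-12 cells and Fastkd2 by 0.65, while the methyltransferase gene Mrm1 fell by 0.59. The helicase gene Ddx28 had a difference of 0.92 there. It read 6.49 and 6.35 in naive cells, below the filter value (6.83), and entered the tests only through its primed arrays. The helicase gene Dhx30 fell by 0.50 in IL-2 cells, where the membrane insertase gene Oxa1l rose by 0.50. Between the cytokines, Mettl17 was lower in IL-12 cells (-0.42) and Mtg1 higher (0.44). Of 16 genes for mitochondrial transcription, DNA maintenance and RNA processing, 4 rose in IL-2 cells, none falling by limma, and 5 rose and 2 fell in IL-12 cells. The shares that rose, 25% and 31.2%, were those of the background (25.8% and 31.2%), so the genes named next are examples only. Slirp, an RNA-binding partner of Lrpprc, rose by 1.17 in IL-12 cells, Supv3l1 by 0.64 and the poly(A) polymerase gene Mtpap by 0.58. Polg, the catalytic subunit of the mitochondrial DNA polymerase, fell by 0.69 and its partner Polg2 by 0.89. Ssbp1, which binds single-stranded mitochondrial DNA, rose by 0.44 in IL-2 cells. Between the cytokines 1 gene of this list was called higher in IL-12 cells, Lrpprc (0.36), and 1 lower, Polg (-0.46). The transcription factor gene Tfam read 8.32 and 8.54 in naive, 8.50 and 8.42 in IL-2 and 8.37 and 8.72 in IL-12 cells and passed no test.

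Of 8 tested regulators of nuclear genes for mitochondria, 1 rose and 3 fell in IL-2 cells and 3 rose and 2 fell in IL-12 cells. As shares of the list, 12.5% rose and 37.5% fell in IL-2 cells (25.8% and 19.9% of all tested genes), and 37.5% rose and 25% fell in IL-12 cells (31.2% and 26.7%). Pprc1, a coactivator related to PGC-1, read 9.09 and 8.90 in naive, 7.69 and 7.80 in IL-2 and 8.40 and 8.85 in IL-12 cells. It fell by 1.25 in IL-2 against naive cells (limma adjusted p = 0.000265) and was 0.88 ± 0.15 higher in IL-12 than in IL-2 cells (limma adjusted p = 0.00522). The related gene Ppargc1b fell by 0.79 and 0.77 in IL-2 and IL-12 cells. Myc read 11.40 and 11.39 in naive, 11.78 and 11.50 in IL-2 and 11.94 and 11.86 in IL-12 cells and rose by 0.50 in IL-12 cells (limma adjusted p = 0.00622). Gabpa, whose family binds the ETS motif, rose by 0.40 and 0.35, and its partner Gabpb1 by 0.42 in IL-12 cells. In IL-2 cells Gabpb1 did not pass (0.15; limma adjusted p = 0.343). Nrf1 had 0.30 and 0.23 in IL-2 and IL-12 cells (limma adjusted p = 0.0831 and 0.147). Yy1 had -0.14 and -0.13 (limma adjusted p = 0.281 and 0.286), so neither of these 2 passed. Esrra, a nuclear receptor, fell by 0.35 and 0.40.

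Members with more than 1 probe set numbered 8, and each probe set was also fitted on its own. Those of Mrpl23, Mrps33 and Mrps36 gave like values, for example 1.51 and 1.60 in IL-12 against naive cells for Mrps36. For Mrpl51 they differed: the brighter rose by 0.95 in IL-12 cells, and the other read 8.21 and 8.58 in naive and 8.47 and 8.67 in IL-12 cells (0.18; limma adjusted p = 0.38). For Mrpl47 the values were 1.04 and 0.39, and for Mrpl41 they were 0.35 and 0.07, the second not passing (limma adjusted p = 0.579). The rises of Mrpl51 and Mrpl41 in IL-12 cells therefore rest on 1 of 2 probe sets. In IL-2 against naive cells the probe sets of Mrpl51 had opposite signs, 0.64 (limma adjusted p = 0.00282) and -0.31 (adjusted p = 0.147). There the second probe sets of Mrpl47 (0.28, limma adjusted p = 0.143) and Mrps5 (0.26, adjusted p = 0.156) did not pass either, so the rises of Mrpl51, Mrpl47 and Mrps5 in IL-2 cells also rest on 1 of 2 probe sets.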

How the data were processed

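Total RNA of 6 samples was hybridised to Affymetrix arrays, 1 array per sample. The authors deposited log2 values of 35556 probe sets. RMA is the method in the submitters' processing notes; it corrects background, normalises arrays by quantiles and summarises probes. Its version and settings, and any build, are not given in the sources used here. Because RMA brings distributions close together, a shift common to most genes could be lost. The deposited arrays were not fully equal. The median of all probe sets ran from 6.78 (IL-12 replicate 2) to 6.95 (naive replicate 1). Over the tested genes naive replicate 1 had the lowest median (8.69) and IL-2 replicate 1 the highest (8.83).

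Gene names came from the platform's annotation, which can be old (21789 with 1 symbol, 1621 with several, 12146 with none). Promoter sequences were RefSeq's on GRCm38.p6, matched by gene identifier for 68 of 77 members.

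Genes entered the tests (11147) when 2 or more arrays exceeded the 50th percentile. One limma model (version 3.58.1, R 4.3.3, functions lmFit and eBayes) held a mean for each group over all 6 arrays (3 residual and 5.62 prior degrees of freedom, two-sided, Benjamini-Hochberg adjusted). The fit was tested on simulated data. Named members were the 6 largest and 4 lowest changes per comparison, all that fell and a set of 15 with known roles. From each pathway list the 4 genes with the smallest adjusted p were named. Mrps22, Mrpl54, Mtif2, Mtif3, Tfam, Gadd45gip1, Nrf1, Yy1 and the members with several probe sets were added after their values were seen. Members, lists and motifs were chosen with earlier results of these data known.

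Alternatives were other filters, the mean of probe sets, quantile normalization, median centring, trend and robust estimation, fits on the compared groups, a replicate block and leaving out each array. Centring on the median of the tested genes and single probe sets were added after seeing the data.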

Additional observations from a re-analysis of the deposited data

How the results depend on the processing

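No called member changed sign under the 15 alternatives. Of 54 members called higher by limma in IL-2 against naive cells 30 kept their call under all of them, of 66 higher in IL-12 than in naive cells 52 did, and of 7 higher in IL-12 than in IL-2 cells 0 did (limma). The cause was not tested for the values that moved. Leaving out 1 array, higher members numbered 35 to 60 in IL-2 and 56 to 71 in IL-12 against naive cells and 1 to 19 between the cytokines. Lower members numbered 0 to 3, 1 to 1 and 0 to 1. The difference of subunit medians ran from 0.10 to 0.30 in IL-2 and from 0.089 to 0.36 in IL-12 against naive cells, and from -0.05 to 0.05 between the cytokines. Centring each array on its median left 0 members called lower in IL-2 against naive cells. Fitting only the groups compared gave 19 higher and 1 lower between the cytokines. Centring on the median of the tested genes gave 13 higher there, where 12.2% of tested genes were. For fits of the compared groups or without 1 array, the share of all tested genes is not given here. A filter at the 75th percentile, with fewer genes tested, put the difference of subunit medians in IL-12 against naive cells at 0.034. With 2 arrays per group, the standard error over members was 0.10 to 0.30.

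Whether replicate numbers pair the arrays is not stated in the labels. Deviations from the group means correlated at 0.02 between naive and IL-2, -0.02 between naive and IL-12 and 0.15 between IL-2 and IL-12 arrays. With 2 arrays per group these values cannot decide whether arrays of the same number share an animal or a batch. A replicate block gave 55 higher and 2 lower members in IL-2 against naive cells, 67 and 1 in IL-12 against naive cells and 7 and 0 between the cytokines.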

Other observations

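Mrpl53 was no member, because its probe set also names Ccdc142. That probe set read 8.14 and 7.94 in naive, 7.96 and 8.02 in IL-2 and 8.04 and 7.97 in IL-12 cells, with the 3 groups overlapping, and the signals of the 2 genes cannot be told apart in it.

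Median changes of members with and without a promoter motif are given side by side. In IL-12 against naive cells the median log2 fold change was 0.76 for the 25 members with the ETS motif and 0.76 for those without, 0.73 and 0.76 for the NRF1 motif, 0.77 and 0.76 for the YY1 motif, 0.86 and 0.76 for the E-box and 0.76 and 0.75 for the SP motif. In IL-2 against naive cells it was 0.62 and 0.52 for the ETS motif, 0.62 and 0.54 for the NRF1 motif, 0.45 and 0.61 for the YY1 motif, 0.60 and 0.54 for the E-box and 0.55 and 0.57 for the SP motif. Between the cytokines the median was 0.00 for the 13 members with the NRF1 motif and 0.21 for those without, 0.12 and 0.21 for the ETS motif, 0.21 and 0.16 for the YY1 motif, 0.25 and 0.18 for the E-box and 0.21 and 0.16 for the SP motif. These are descriptions with no test.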
